A study of Mus musculus with 9 samples.

Results

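Gene expression in embryonic mouse cardiac fibroblasts was set against that in adult mouse cardiac fibroblasts. The pair was chosen by sample title and holds 6 of the study's 9 arrays, 3 per group, and the comparison runs over 19933 genes drawn from 28767 probes on Affymetrix Mouse Gene 1.0 ST arrays, which read total RNA with probes spread along each transcript. The study sought factors made by fibroblasts that make heart muscle cells divide. Its other 3 arrays hold embryonic cardiomyocytes, described by the submitters as Nkx-YFP+, and they enter here to estimate the spread and as a reference level. The 3 arrays of each group are described as biological replicates. The embryonic stage, the age of the adults, the strain, the sex of the animals, whether cells were pooled or cultured, and how the fibroblasts were purified are not given here by any source used. Each group is known only as embryonic or adult cardiac fibroblasts from mouse heart, with no genetic change or treatment named for them.

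Cardiac fibroblasts are the resident mesenchymal cells of the heart, and most arise from the epicardium, the outer cell layer of the embryonic heart. They lay down the collagen, fibronectin and proteoglycan scaffold around heart muscle cells and send them growth factors. In the embryo they multiply while the muscle wall thickens. In the adult they rarely divide, and after injury they can turn on cytokines, matrix-degrading enzymes and contractile proteins.

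All values are RMA levels on the log2 scale, on which a difference of 1 is a 2-fold difference. Differences are embryonic minus adult, given with the standard error (± SE) of the limma fit and a p-value adjusted by Benjamini-Hochberg over all 19933 genes. A gene is called higher or lower where that adjusted p is under 0.05. Per-array values are given in the order of replicates 1, 2 and 3. RMA levels depend on the probes, so levels are compared between arrays for one gene and not between genes. A bulk level cannot tell fewer cells of a type apart from less RNA per cell.

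The embryonic preparation carried cardiomyocyte transcripts, and its fibroblast markers were mostly below those of the adult one. Of 14 fibroblast markers, 10 were lower in the embryonic arrays and 1 was higher, where 8.34% of all 19933 genes were lower and 11.2% higher. The mean level of that list was 9.01 to 9.29 in the embryonic arrays, 10.2 to 10.6 in the adult arrays and 8.11 in the cardiomyocyte arrays. Dpt, which encodes the matrix protein dermatopontin, read 11.08, 10.56 and 10.32 in embryonic and 13.11, 13.15 and 12.33 in adult arrays. Pdgfra, the PDGF receptor that marks cardiac fibroblasts, read 9.84, 9.93 and 10.02 against 10.49, 10.47 and 10.49, and was lower by a narrower margin (-0.55 ± 0.10, adjusted p = 0.00463). All 14 cardiomyocyte markers were higher in the embryonic fibroblast arrays, where their mean was 10.7 to 11.5, against 7.76 to 8.09 in the adult arrays and 12.4 in the cardiomyocytes. Tnnt2, cardiac troponin T, read 13.43, 13.26 and 13.44 in the embryonic fibroblast arrays and 9.40, 10.62 and 9.47 in the adult ones, with a mean of 13.82 in cardiomyocytes. The label "fibroblast" is therefore kept as the submitters' name for a preparation in which heart muscle transcripts stood between the adult fibroblast and the cardiomyocyte level.

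**Figure D1:**
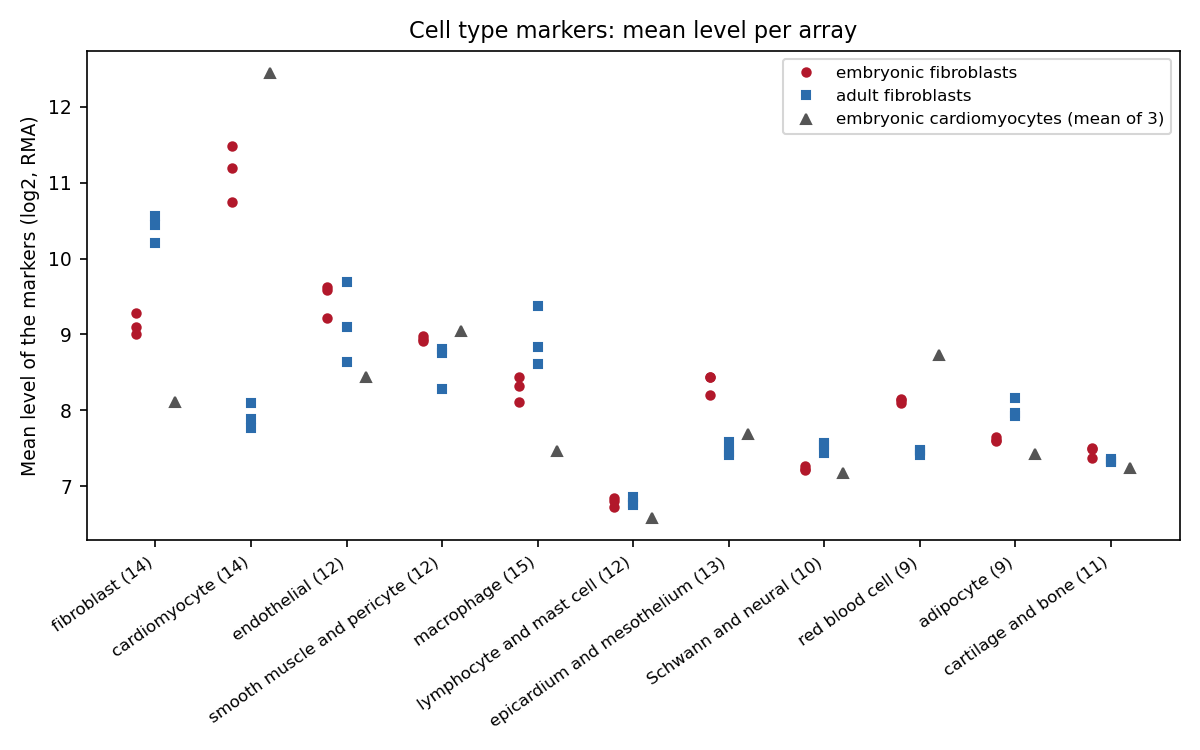
Mean log2 RMA level of each cell type marker list in each array. Circles and squares are single arrays of embryonic and adult fibroblasts, and triangles the mean of the 3 cardiomyocyte arrays. The cardiomyocyte list lies at 10.7 to 11.5 in the embryonic fibroblast arrays and at 7.76 to 8.09 in the adult ones, and the fibroblast list at 9.01 to 9.29 and at 10.2 to 10.6.

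Markers of other cell types differed in part. Of 15 macrophage markers, 6 were lower in the embryonic arrays and 1 was higher, the latter losing its call without any single array except adult replicate 2. The list's mean was 8.11 to 8.44 in embryonic and 8.61 to 9.37 in adult arrays. Ptprc, the pan-leukocyte antigen CD45 and the member with the largest difference, read 8.24, 7.92 and 8.55 against 9.65, 10.50 and 10.81. Csf1r (-0.175), Tyrobp (0.042) and C1qa (-0.214) were among the members that did not pass. The lower count ran from 4 to 7 with each fibroblast array left out in turn. Of 13 epicardial and mesothelial markers, 9 were higher in the embryonic arrays, with means of 8.20 to 8.44 against 7.41 to 7.58. Upk1b (2.16), Muc16 (2.10) and Gpm6a (1.89) led, with cardiomyocyte means (7.03, 6.32 and 8.72) below their embryonic fibroblast arrays. The keratins Krt18 (1.20) and Krt19 (1.16) were higher too. The Krt19 cardiomyocyte mean, 8.34, was above its embryonic fibroblast arrays. Endothelial markers overlapped between the groups, at 9.22 to 9.63 in embryonic and 8.64 to 9.69 in adult arrays, with 2 of 12 called higher and 1 lower, near the shares of all genes. With each array left out in turn these counts ran from 0 (without embryonic replicate 1 or 2 or adult replicate 1) to 4 (without adult replicate 2), and from 0 (without any 1 embryonic replicate) to 2 (without adult replicate 3). Of 12 smooth muscle and pericyte markers 4 were higher and 2 lower (1 without any single array except adult replicate 3), and of 9 adipocyte markers 3 were lower. Cartilage and bone, with 1 of 11 higher and 1 lower, and Schwann cell and neural markers, with Cdh19 lower (-2.52) of 10, were also near the shares of all genes. The lower cartilage and bone call was lost without any single array except adult replicate 3. Of 9 red blood cell markers, 3 were higher in the embryonic arrays. Hbb-y, the embryonic beta-like globin, read 11.40, 11.27 and 11.28 in the embryonic fibroblast arrays, 6.59, 6.27 and 6.70 in the adult ones and 12.76 on average in cardiomyocytes. The Y-linked gene Eif2s3y read 8.43, 8.51 and 8.53 in embryonic and 4.97, 4.67 and 5.10 in adult arrays, and Xist, transcribed from the inactive X, was lower in the embryonic arrays by 0.77 (fold 1.70), so sex and age cannot be told apart for sex-linked genes.

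Adult replicate 3 stood apart from adult replicates 1 and 2. In it, 97 genes were at least 2-fold above both of the other adult arrays and 280 were at least 2-fold below, against at most 37 and 16 in any other fibroblast array. The genes that varied most among adults, such as Ftl1, the ferritin light chain (11.80, 11.93 and 8.09), and Prdx2, a peroxide-reducing enzyme (10.28, 10.54 and 7.12), were set by that array. It lowered the number of calls: without it, 2476 genes were higher and 2251 lower, against 2232 and 1662 with it. Counts without it are given beside most of the gene groups in which they moved.

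In all, 3894 of 19933 genes (19.5%) were called. Of these, 2232 (11.2%) were higher and 1662 (8.34%) lower in the embryonic arrays. A difference of at least 2-fold was called for 730 higher genes (3.66%) and 501 lower genes (2.51%), and one of at least 8-fold for 44 and 34. The median difference over all genes was -0.04. The smallest called difference was 0.227, and 6576 genes (33%) had embryonic and adult arrays that did not overlap. The gene with the largest difference was Bex1, a small adaptor-like protein of the brain-expressed X-linked family, at 10.54, 10.24 and 11.21 in embryonic and 4.60, 5.01 and 4.33 in adult arrays (6.02 ± 0.24, adjusted p = 8.72e-07, 64.7-fold). Its cardiomyocyte mean, 11.69, was above every embryonic fibroblast array, and the part of heart muscle transcripts in this difference was not tested. On the other side was Il6, the inflammatory cytokine interleukin-6, at 6.48, 5.73 and 7.43 against 12.19, 12.02 and 12.94 (-5.84 ± 0.42, adjusted p = 1.65e-05, 57.2-fold lower).

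**Figure D2:**
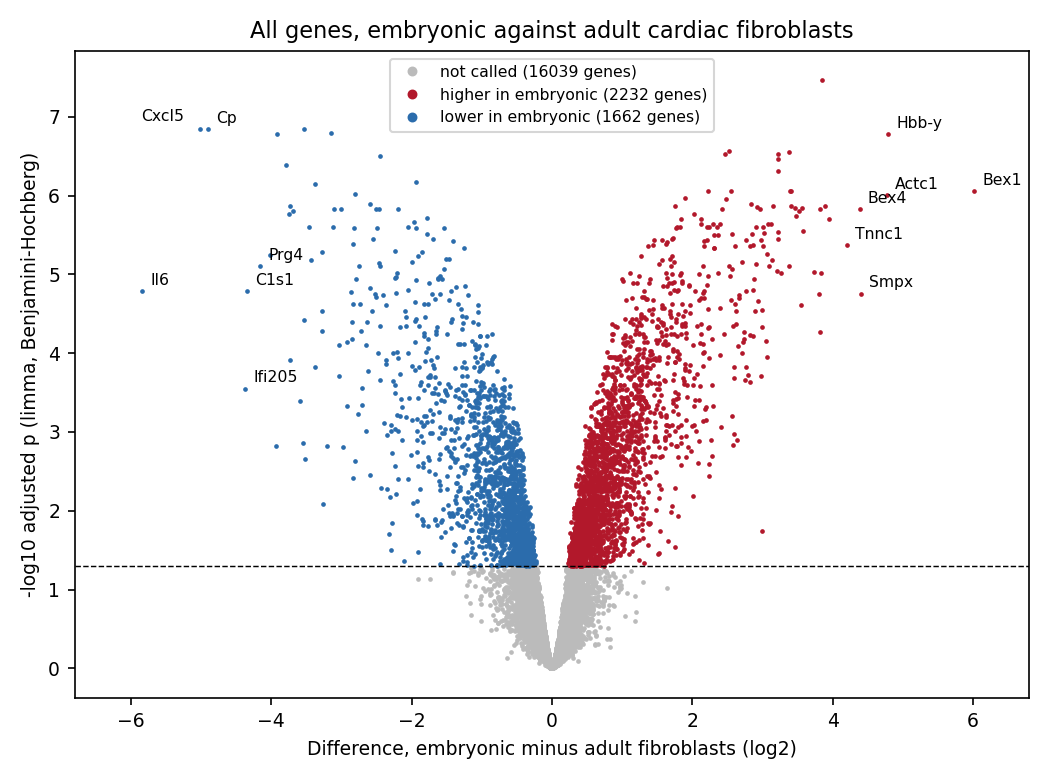
Embryonic minus adult difference (log2, x axis) against the adjusted p on a −log10 scale (y axis) for the 19933 genes, each a point, with called genes in colour and leading genes named. Called genes number 2232 on the higher side and 1662 on the lower side, with Bex1 at 6.02 and Il6 at -5.84 as the extremes.

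**Figure D3:**
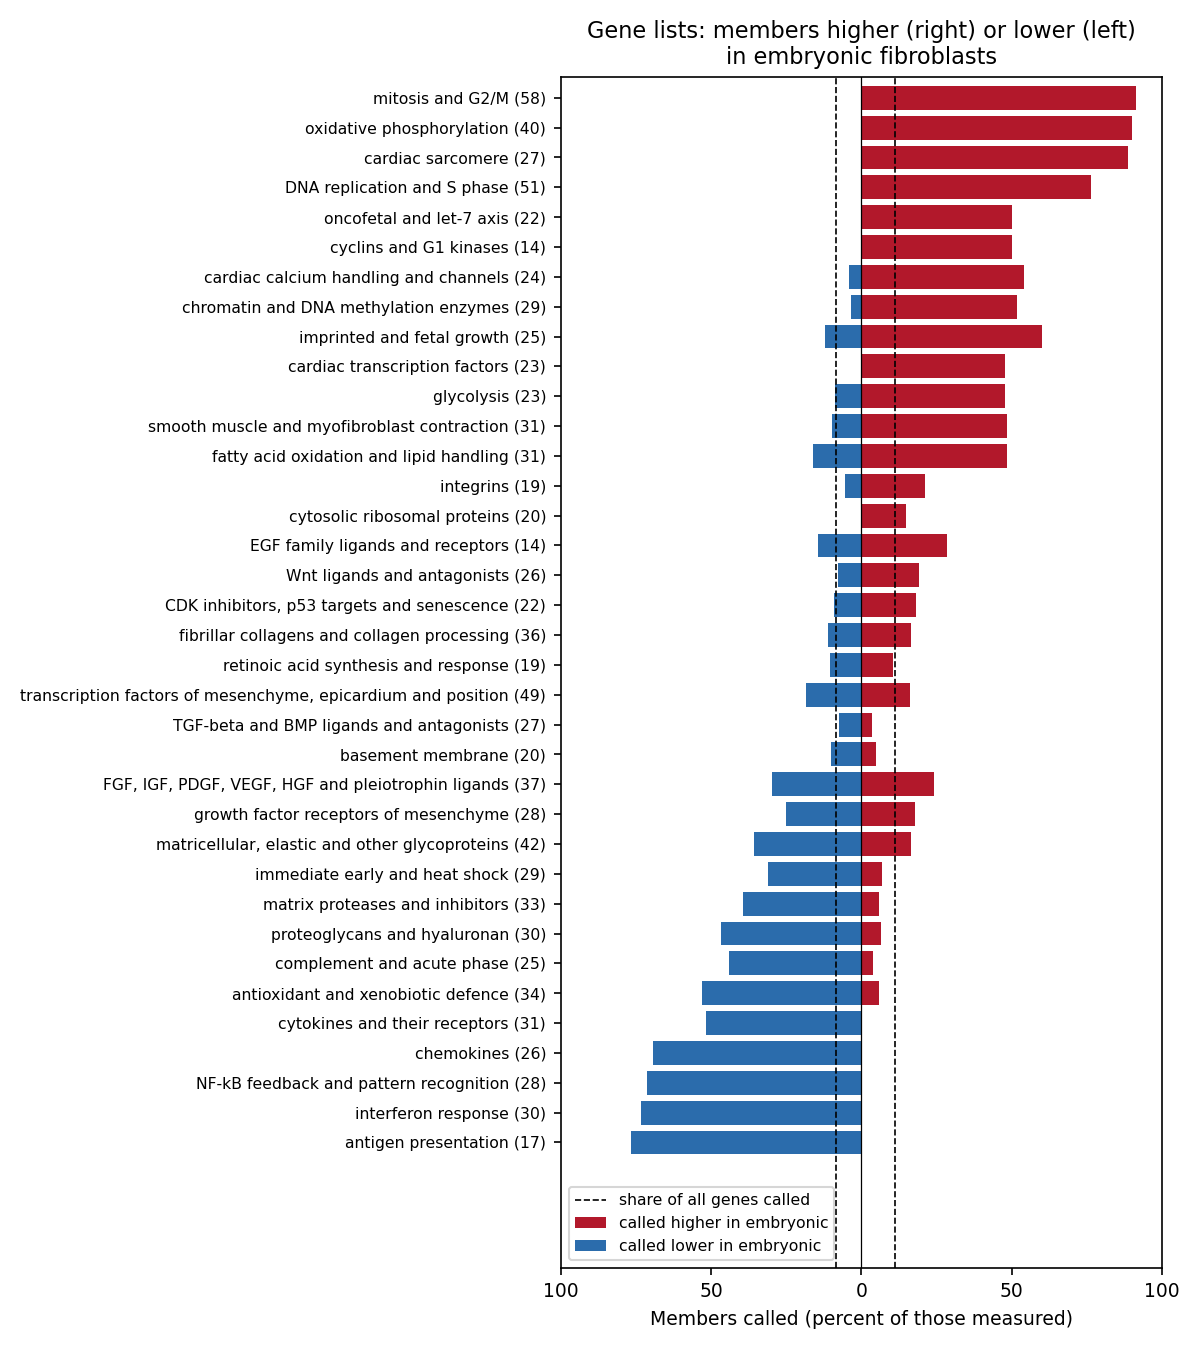
Share of each gene list's measured members called higher or lower in embryonic fibroblasts, with the shares for all 19933 genes (11.2% and 8.34%) as reference. Mitosis and sarcomere lists stand almost wholly on the higher side, and chemokine and interferon lists have called members on the lower side alone.

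The lists below are described by their counts and medians, to be read against the shares for all genes (11.2% higher, 8.34% lower, median -0.04). No test of a list was made.

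Cell division genes were higher in embryonic fibroblasts almost throughout. Of 58 mitosis and G2/M genes, 53 were higher and 0 lower (0 also at an unadjusted limma p under 0.05), with a median difference of 1.70. Top2a, the topoisomerase that untangles chromosomes before they part, read 10.73, 10.86 and 11.44 in embryonic and 6.91, 7.17 and 7.27 in adult arrays. The difference was 3.89 ± 0.17 (adjusted p = 1.37e-06, 14.8-fold), but 2.05 where its 2 probes were averaged. Bub1, a kinase of the spindle checkpoint, read 9.11, 9.40 and 10.12 against 5.15, 5.55 and 6.46. Its difference of 3.82 was 14.1-fold, and the groups stood far apart although adult replicate 3 was the highest adult array. Smc2, a condensin subunit, was 10.5-fold higher and Anln, the anillin of the cleavage furrow, 9.36-fold higher. Mki67, the common proliferation marker, read 9.44, 9.58 and 10.09 against 8.01, 8.30 and 8.29 and was 2.84-fold higher. Bub3, Aurkb, Espl1, Pttg1 and Cdc25b were the 5 members that did not pass.

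DNA replication genes followed the same direction with smaller differences. Of 51 S phase genes, 39 were higher and 0 lower (0 at an unadjusted p under 0.05), with a median of 0.95. The leading members were Prim1 (2.86), the primase subunit that starts each new strand, E2f8 (2.71), a repressor of the E2F family, Hells (2.17), a chromatin remodeller, and Mcm4 (1.90), part of the replicative helicase. Pcna, the sliding clamp, did not pass (-0.12). Among 14 cyclins and G1 kinases 7 were higher and 0 lower (0 at an unadjusted p under 0.05). Cdk4, the kinase that opens G1, read 10.95, 11.02 and 10.82 against 9.52, 9.57 and 8.19, with the lowest value in adult replicate 3. Cdk2 (1.15), Ccnd2 (0.91, but 0.60 without replicate 3 of both groups) and Ccne1 (0.67) were also higher.

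Brakes of the cell cycle were mixed. Of 22 CDK inhibitors, p53 targets and senescence genes, 4 were higher and 2 lower, and the lower count was 5 without adult replicate 3 and 1 without embryonic replicate 1. Cdkn1c, which encodes the CDK inhibitor p57 and is expressed from the maternal allele, read 11.36, 11.38 and 11.41 in embryonic and 8.73, 8.97 and 8.89 in adult arrays, a 5.73-fold difference (2.52 ± 0.08, adjusted p = 2.75e-07). The cardiomyocytes stood at 10.73, below the embryonic fibroblasts. Lmnb1, a lamin lost in senescence, and Rbl1, the pocket protein p107, were higher by 1.83 and 1.31, while Mdm2, the p53 ligase, was lower (-0.52). The mean of the mitosis list was 8.84 to 9.21 in embryonic fibroblast, 7.09 to 7.31 in adult fibroblast and 9.74 in cardiomyocyte arrays. The cardiomyocyte markers moved in the same order, and their part in the cell cycle differences was not tested.

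The 250 bases upstream of the Top2a start are shown because Top2a has the list's largest difference (with its probes averaged, Bub1 would) and the window holds 6 matches to the CCAAT box (CCAAT on either strand), a motif known from promoters of G2/M genes. The sequence is from RefSeq, build GRCm38.p6, minus strand, chr11:99024190-99024439, written 5′ to 3′ along the gene, with the matches in capitals.
Top2a: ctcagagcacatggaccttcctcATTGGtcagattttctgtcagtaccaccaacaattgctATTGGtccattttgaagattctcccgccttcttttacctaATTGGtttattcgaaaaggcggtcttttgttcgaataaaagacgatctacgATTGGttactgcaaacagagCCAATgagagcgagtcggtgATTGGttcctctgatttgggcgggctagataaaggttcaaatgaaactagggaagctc
The matches begin 227, 189, 149, 98, 78 and 58 bases before the start. Promoter entries were found for 15609 of the 19933 genes. A CCAAT match was present for 38.8% of these, for 34 of 48 mitosis genes (70.8%) and for 47% of the genes at least 2-fold higher. It was not particular to mitosis genes, as 27 of 43 S phase genes (62.8%) and 16 of 27 smooth muscle genes (59.3%) held it. Among genes at least 2-fold lower the share was 38.2%. The cell cycle homology region (TTTGAA) matched 15.7% of all genes and 18 of 48 mitosis genes (37.5%). It also matched 5 of 18 chemokines (27.8%), 17.9% of the genes at least 2-fold higher and 18.4% of those at least 2-fold lower. The E2F motif, searched as TTNNCGC with C or G at each N, matched 12.3% of all genes and 21 of 43 S phase genes (48.8%). CCAAT and E2F matches shared bases in 95 of 19171 windows, and CCAAT and cell cycle homology matches in 20. Such a match is a description of the letters and shows no binding.

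Imprinted genes and fetal growth genes were largely higher in embryonic fibroblasts. Imprinted genes are read from the maternal or the paternal copy alone, and many control fetal size. Of 25 measured, 15 were higher and 3 lower, with a median of 0.99. Igf2, the fetal growth factor insulin-like growth factor 2, read 11.95, 11.77 and 11.63 in embryonic and 8.51, 8.50 and 8.22 in adult arrays. That was 10.4-fold (3.37 ± 0.11, adjusted p = 2.78e-07), and the cardiomyocyte mean of 11.66 lay close to the embryonic fibroblasts. Slc38a4, an imprinted amino acid transporter, read 11.13, 11.25 and 11.28 against 7.66, 8.18 and 7.60 and was 10.6-fold higher. Mest read 11.83, 11.93 and 12.14 against 8.53, 9.35 and 8.63 and was 8.76-fold higher. Ndn, a growth suppressor, read 9.26, 9.14 and 9.70 against 7.25, 7.58 and 9.37, and with adult replicate 3 inside the embryonic range it did not pass (1.30, adjusted p = 0.0805). The lower members included Dcn (-1.61), the proteoglycan decorin, and Impact (-1.11), a regulator of translation.

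Oncofetal genes, which the embryo uses and tumours can regain, had 11 of 22 members higher and 0 lower (0 at an unadjusted p under 0.05). Bex1 was counted in this list, which was chosen with earlier results of these data known. Bex4, of the same family as Bex1, read 9.41, 9.38 and 10.13 against 5.37, 5.41 and 4.99 (20.9-fold). The cardiomyocyte mean of Bex4, 10.91, was like that of Bex1 above every embryonic fibroblast array. Igf2bp1, an RNA-binding protein that holds fetal growth messages, read 9.07, 9.37 and 9.31 against 6.72, 7.03 and 7.34. It was 4.67-fold higher, and the cardiomyocytes stood lower at 8.77. Plag1, a zinc finger activator of growth genes, was higher by 2.28. Lin28a (-0.21) and Lin28b (0.27), which block let-7 maturation, did not pass. Among 29 chromatin and DNA methylation genes 15 were higher and 1 lower, Jarid2 (-0.25). Its call was lost with any 1 fibroblast array left out and with the replicate block. Over the alternatives the list's lower count ran from 0 to 2. The higher ones were led by Hmgn2 (2.31) and Hmgb2 (1.85), chromatin proteins of dividing cells, Cbx5 (1.86), a heterochromatin protein, and Dnmt1 (1.72), which copies DNA methylation at replication.

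Single genes outside these groups were among the largest differences. Capn6, a calpain without protease activity, read 10.41, 10.42 and 10.41 in embryonic and 6.42, 6.66 and 6.61 in adult arrays (3.85 ± 0.08, adjusted p = 3.44e-08), and Nrk, a kinase of embryonic tissues, read 11.33, 11.58 and 11.48 against 7.31, 7.58 and 8.05. For both, the cardiomyocyte means (9.62 and 9.77) were below the embryonic fibroblast arrays. On the adult side Scn7a, a sodium channel family member, read 10.47, 10.28 and 11.33 in adult and 6.81, 6.70 and 6.52 in embryonic arrays, 16.2-fold lower in the embryo. Abcb1b, a drug efflux pump, was 15.1-fold lower and Abca8a, a lipid transporter, 13.8-fold lower. Both have close paralogs with which probes may be shared.

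**Figure D4:**
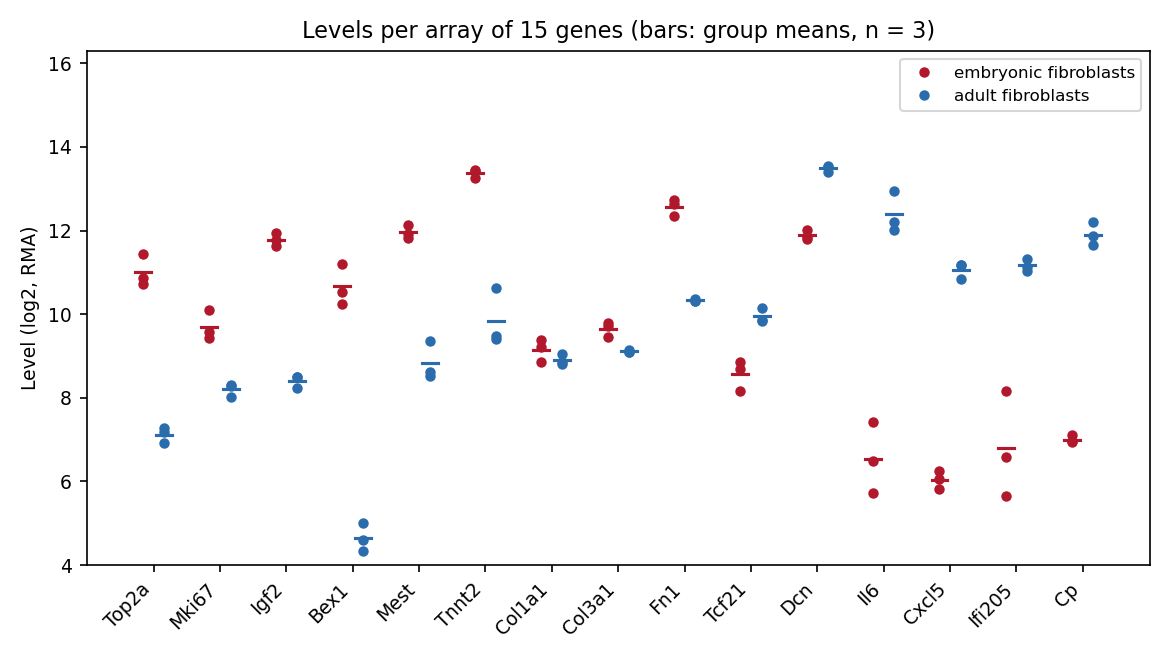
Log2 RMA level of 15 genes in each array, with points for the 3 arrays of each group. Embryonic and adult fibroblast points are apart for Top2a, Igf2, Bex1 and Fn1 on the higher side and for Il6, Cxcl5 and Cp on the lower side, while those of Col1a1 overlap.

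Transcription factors of mesenchyme, epicardium and position had no common direction, with 8 of 49 higher and 9 lower. Tcf21, a factor needed for cardiac fibroblasts to form from the epicardium, read 8.69, 8.16 and 8.86 in embryonic and 10.14, 9.87 and 9.83 in adult arrays, 2.59-fold lower in the embryo (-1.38 ± 0.18, adjusted p = 0.000696). Prrx1, a mesenchymal homeobox factor, read 8.69, 8.55 and 8.69 against 10.78, 10.47 and 9.77. Ebf2 (-1.05) and Meox2 (-0.98) were lower as well. The higher ones were led by the homeobox factors Meis2 (1.62) and Meis1 (1.07) and the cardiac factors Tbx20 and Gata6 (both 0.85). The cardiomyocyte mean of Meis2, 10.20, was above its embryonic fibroblast arrays (9.54, 9.48 and 10.07). That of Tbx20, 10.579, was also above its embryonic fibroblast arrays (9.441, 9.637 and 9.947). That of Gata6, 9.975, lay among its embryonic fibroblast arrays (9.916, 9.889 and 10.156). The part of heart muscle transcripts in these differences was not tested.

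Extracellular matrix genes had members on both sides. Among 36 fibrillar collagen and collagen processing genes, 6 were higher and 4 lower. These counts were unstable: the higher one was 10 without replicate 3 of both groups, and the lower one was 6 without adult replicate 3, 8 under quantile normalization and 9 with array weights. Col1a1, the main chain of type I collagen, read 9.39, 9.21 and 8.86 in embryonic and 9.06, 8.81 and 8.85 in adult arrays, groups that overlap (0.25, adjusted p = 0.235). Col3a1, of type III collagen, read 9.78, 9.72 and 9.45 against 9.15, 9.10 and 9.10 and was 1.45-fold higher. Col12a1 (1.14) and Col5a2 (0.59), which shape fibrils, and the collagen hydroxylases P4ha3 (1.29) and P3h2 (1.25) were higher too. Pcolce2, an enhancer of procollagen cleavage, read 7.02, 7.48 and 7.38 against 10.39, 10.52 and 10.33 and was 8.68-fold lower, and Col8a1 (-1.67) and Col15a1 (-0.67) were lower.

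Of 42 matricellular, elastic and other glycoprotein genes, 7 were higher and 15 lower (21 without adult replicate 3), with a median of -0.36. Fn1, fibronectin, the adhesive protein bound by integrins, read 12.64, 12.74 and 12.35 in embryonic and 10.31, 10.37 and 10.33 in adult arrays (2.24 ± 0.12, adjusted p = 2.49e-06, 4.73-fold). Fbn2, the fibrillin of embryonic microfibrils, read 10.29, 10.31 and 10.18 against 7.47, 7.18 and 7.84 and was 6.79-fold higher. Hapln1, which ties hyaluronan to proteoglycans, read 9.29, 9.63 and 9.38 against 6.83, 7.09 and 7.20, with the cardiomyocytes between the groups at 8.02. Postn, periostin of growing and injured heart, read 12.45, 12.42 and 12.36 against 12.07, 11.34 and 12.04 and missed the threshold (0.59, adjusted p = 0.0518). Over the alternatives its adjusted p ran from 0.0236 to 0.247. On the lower side, Mfap5, a microfibril protein, read 8.83, 8.77 and 8.52 against 12.77, 12.55 and 12.02 (13.4-fold lower), and Prg4, lubricin, was 17.8-fold lower.

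Proteoglycan and protease genes had more lower than higher members. Of 30 proteoglycan and hyaluronan genes, 2 were higher and 14 lower (16 without adult replicate 3; median -0.44). Gpc3, a glypican that carries growth factors, read 10.69, 10.59 and 11.05 in embryonic and 7.91, 7.94 and 7.57 in adult arrays, 7.84-fold higher, and Gpc4 was higher by 0.77. The small leucine-rich proteoglycans Prelp (-2.80), Ogn (-2.39) and Dcn were lower, and Dcn read 12.02, 11.84 and 11.80 against 13.55, 13.41 and 13.52. Among 33 proteases and inhibitors 2 were higher and 13 lower, 19 without adult replicate 3. With each fibroblast array left out in turn the lower count ran from 11 to 19. Mmp3, stromelysin, read 6.26, 6.22 and 6.17 against 9.84, 9.18 and 8.74 and was 8.21-fold lower, with Adamts5, an aggrecan-cleaving enzyme, 7.29-fold lower and Mmp13, a collagenase, also lower (-2.17). Of the 20 basement membrane genes 1 was higher (Agrn, 0.86) and 2 were lower (3 without adult replicate 3, and 1 without embryonic replicate 1 or 3), shares near those of all genes. Lama2, the laminin chain of muscle basement membrane, read 8.69, 8.50 and 8.73 against 11.44, 11.15 and 11.83, a 7.12-fold difference.

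Integrins, the receptors for this matrix, had 4 of 19 members higher and 1 lower, but the higher count was 1 without embryonic replicate 2 and 2 without embryonic replicate 1 or 3 or adult replicate 1 or 2. Among the higher members was Itga8 (1.39), a fibronectin receptor chain, which kept its call in each of these. The lower member was Itga11 (-0.77), a collagen receptor chain. Itgb1, the beta chain shared by most of them, read 12.36, 12.45 and 12.32 in embryonic and 12.24, 12.28 and 12.27 in adult arrays. It did not pass (0.11, adjusted p = 0.347), and its sign turned under quantile normalization (-0.083).

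Growth factor ligands also had members on both sides. Of 37 FGF, IGF, PDGF, VEGF, HGF and pleiotrophin genes, 9 were higher (11 without adult replicate 3) and 11 lower. Ptn, pleiotrophin, a heparin-binding growth factor of embryonic mesenchyme, read 12.43, 12.28 and 12.03 in embryonic and 9.63, 9.50 and 9.92 in adult arrays (5.93-fold higher), and its relative Mdk, midkine, was higher by 1.32. Igfbp5, which binds IGFs, was higher by 1.58 and Igfbp7 lower (-2.45). Fgf7, keratinocyte growth factor, read 7.36, 7.36 and 7.07 against 10.17, 9.65 and 10.20 and was 6.68-fold lower, with Fgf2 (-1.67) and Kitl, stem cell factor (-1.45), also lower. The list therefore held Igf2, Ptn and Mdk on the embryonic side and Fgf7, Fgf2 and Kitl on the adult side.

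In the EGF family 4 of 14 genes were higher and 2 lower. Hbegf, a membrane-bound ligand of EGFR and ERBB4, read 12.01, 11.91 and 11.61 in embryonic and 10.74, 10.84 and 10.03 in adult arrays (1.30 ± 0.20, adjusted p = 0.00165, 2.47-fold). Its receptor Egfr went the other way, at 8.30, 8.05 and 8.16 against 11.33, 10.89 and 10.56, and was 6.75-fold lower. Erbb4 (1.24), Erbb2 (0.59) and the neuregulin ligand Nrg1 (0.55) were higher. The Erbb4 cardiomyocyte mean was 10.07, above its embryonic fibroblast arrays of 8.49, 8.32 and 8.99.

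Receptors and morphogens had members on both sides. Of 28 growth factor receptors of mesenchyme 5 were higher, led by Fgfr2 (1.31) and Insr (0.99), and 7 were lower, led by the collagen receptor Ddr2 (-2.22) and Fgfr1 (-1.71). The higher count was 2 without embryonic replicate 2 and 3 without embryonic replicate 1. Of 27 TGF-beta and BMP genes 1 was higher and 2 were lower, but without adult replicate 3 these were 3 and 3, without embryonic replicate 2 they were 3 and 0, and without embryonic replicate 1 or adult replicate 1 no member was lower. Bmp5 (1.70) was the higher one, at 8.65, 9.78 and 8.55 against 7.04, 6.81 and 8.04, with embryonic replicate 2 and adult replicate 3 both standing high. Of 26 Wnt genes 5 were higher and 2 lower, and the higher count was 3 without embryonic replicate 2 or 3 or adult replicate 1 or 2. The secreted Wnt antagonists were on both sides, with Sfrp2 (1.13) and Sfrp1 (0.75, but 0.49 without replicate 3 of both groups) higher and Frzb (-1.76) and Sfrp4 (-1.12) lower. Of 19 retinoic acid genes 2 were higher, the receptors Rarb (1.00) and Rara (0.69), and 2 lower, the synthesis enzymes Rdh10 (-1.38) and Aldh1a1 (-1.14). The lower count was 4 without adult replicate 3.

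Inflammatory signals were far lower in embryonic fibroblasts. Of 31 cytokines and receptors 16 were lower and 0 higher (0 at an unadjusted p under 0.05), with a median of -1.01. Il33, an alarmin of stromal nuclei, read 7.92, 7.93 and 8.06 in embryonic and 11.17, 10.68 and 10.43 in adult arrays (6.93-fold lower). Csf2, the myeloid growth factor GM-CSF, read 6.89 to 7.07 against 9.23 to 10.31 (7.24-fold lower). Tnf read 7.43, 7.19 and 8.10 against 10.53, 11.01 and 8.95, with adult replicate 3 the nearest to the embryonic arrays. The median difference of the cytokine list lay well below that of all genes.

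Chemokines, which draw leukocytes, moved the same way, with 18 of 26 lower (20 without adult replicate 3) and 0 higher (0 at an unadjusted p under 0.05; median -1.26). Cxcl5, a neutrophil attractant, read 6.07, 5.82 and 6.24 in embryonic and 11.17, 11.17 and 10.84 in adult arrays (-5.02 ± 0.13, adjusted p = 1.45e-07, 32.4-fold lower). Cxcl9, an interferon-induced T cell attractant, varied among adults at 11.07, 12.11 and 9.06 against 6.69, 6.71 and 7.04. Cxcl3 (8.59-fold lower) and Ccl8 (9.18-fold lower) were also far apart. NF-kB feedback and pattern recognition genes, many of them targets of NF-kB, had 20 of 28 lower (23 without adult replicate 3) and 0 higher (0 at an unadjusted p under 0.05), with a median of -1.03. Ptgs2, the inducible cyclooxygenase, read 11.33, 11.23 and 10.83 against 13.05, 12.74 and 13.05, and Birc3, an inhibitor of apoptosis, was 4.16-fold lower.

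The Il6 upstream window is shown for the cytokine with the largest difference, with its 1 match to the NF-kB motif in capitals, 44 bases before the start (RefSeq, GRCm38.p6, plus strand, chr5:30012864-30013113).
Il6: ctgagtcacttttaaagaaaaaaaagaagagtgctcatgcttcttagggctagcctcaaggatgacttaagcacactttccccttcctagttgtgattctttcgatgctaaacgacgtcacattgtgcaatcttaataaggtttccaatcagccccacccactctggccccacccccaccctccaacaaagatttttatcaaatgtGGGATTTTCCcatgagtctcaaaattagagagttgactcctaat
An NF-kB match was present for 9.48% of all genes with an entry, for 6 of 18 chemokines (33.3%), for 8 of 20 NF-kB feedback genes (40%), for 3 of 23 cytokines (13%) and for 15% of all genes at least 2-fold lower. Among genes at least 2-fold higher the share was 9.37%. The motif was not confined to lists with lower members. It matched 7 of 23 cardiac sarcomere genes (30.4%), 6 of 27 smooth muscle genes (22.2%) and 6 of 23 interferon genes (26.1%). Mitosis genes (8.33%) and S phase genes (9.3%) were near the share of all genes. NF-kB matches shared bases with E2F matches in 41 windows and with CCAAT matches in 16.

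Interferon response genes had 22 of 30 members lower, 27 without adult replicate 3, and 0 higher (0 at an unadjusted p under 0.05), with a median of -1.15. Ifi205, of the PYHIN family of DNA sensors, read 5.65, 6.58 and 8.17 in embryonic and 11.13, 11.32 and 11.05 in adult arrays (-4.37 ± 0.50, adjusted p = 0.000281, 20.6-fold lower). Embryonic replicate 3 was the highest embryonic array for it. The same array was highest for its relative Ifi203, at 8.37, 7.73 and 9.39 against 11.95, 12.33 and 12.39, and for Ifih1, the RNA sensor MDA5, at 8.12, 8.04 and 9.47 against 10.85, 11.57 and 11.50. Iigp1, an interferon-induced GTPase, was 9.72-fold lower. The PYHIN genes are close paralogs, and which of them a probe reads is uncertain.

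The Ifi205 window (RefSeq, GRCm38.p6, minus strand, chr1:174031756-174032005), chosen as the list's largest difference, holds 1 interferon-stimulated response element, searched on both strands as GAAANNGAAA and capitalised below, 134 bases before the start.
Ifi205: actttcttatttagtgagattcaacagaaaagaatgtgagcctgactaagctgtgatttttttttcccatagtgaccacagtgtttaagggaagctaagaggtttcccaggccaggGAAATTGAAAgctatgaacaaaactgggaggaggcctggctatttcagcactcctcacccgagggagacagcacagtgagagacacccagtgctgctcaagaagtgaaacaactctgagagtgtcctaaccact
That motif matched 3.4% of all genes with an entry, 11 of 23 interferon genes (47.8%), 10.7% of the genes at least 2-fold lower and 3.92% of those at least 2-fold higher. It shared bases with an NF-kB match in 2 windows, with a cell cycle homology match in 8, with a CCAAT match in 6 and with an E2F match in 4.

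Antigen presentation and complement completed the immune groups. With each fibroblast array left out in turn, the lower counts of these groups moved both ways. They ran from 13 to 17 for cytokines and receptors, 15 to 20 for chemokines and 15 to 23 for NF-kB feedback genes. For interferon response genes they ran from 19 to 27. The lower counts that could only fall were those of antigen presentation (10 to 13) and complement (9 to 11). Of 17 antigen presentation genes 13 were lower and 0 higher (0 at an unadjusted p under 0.05), with a median of -0.85. H2-Aa, an MHC class II chain, read 6.19, 6.19 and 5.93 in embryonic and 9.77, 10.98 and 8.22 in adult arrays (11.7-fold lower). H2-Ab1 (9.07, 10.24 and 7.91 in adult arrays) and Cd74, the class II invariant chain (8.26, 9.31 and 7.49), had the same order, with adult replicate 2 highest and replicate 3 lowest. Of 25 complement and acute phase genes 11 were lower and 1 was higher, the factor I gene Cfi (1.31). Cp, the copper carrier ceruloplasmin, read 6.96, 6.94 and 7.10 against 11.87, 11.65 and 12.20 (-4.91 ± 0.13, adjusted p = 1.45e-07). C1s1, a protease of the classical pathway, read 5.35, 4.89 and 5.27 against 9.97, 9.93 and 8.65 (20.3-fold lower), and Serping1, its inhibitor, was 8.03-fold lower. The macrophage marker mean was 8.11 to 8.44 in embryonic and 8.61 to 9.37 in adult arrays. Ptprc, its member furthest apart, was 4.25-fold lower, while Csf1r, Tyrobp and C1qa did not pass. The part of macrophage transcripts in the immune differences was not tested. The called lymphocyte and mast cell markers numbered 0 of 12 in limma (0 higher and 2 lower at an unadjusted p under 0.05).

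**Figure D5:**
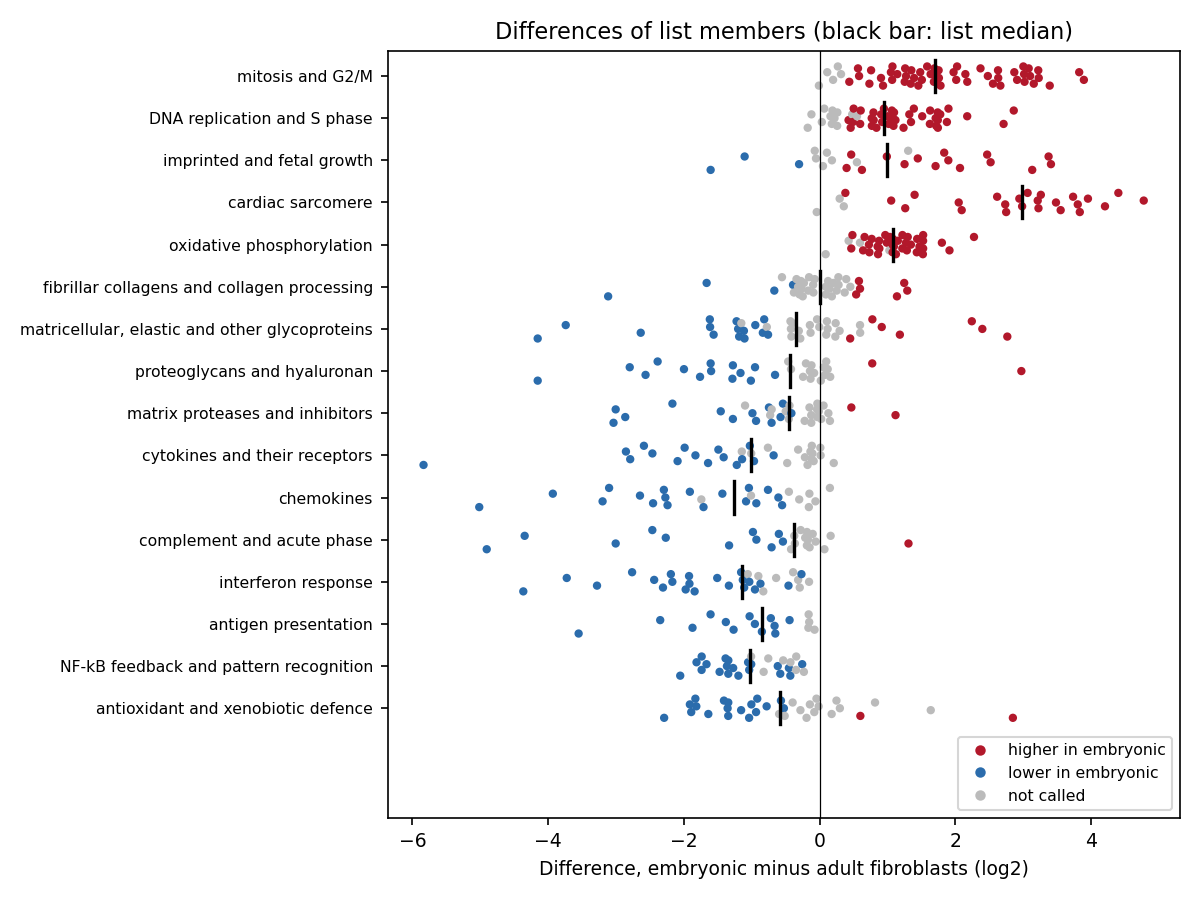
Embryonic minus adult difference (log2) of every measured member of selected lists, 1 point per gene, with called members in colour and the list median marked. The medians run from 2.98 for the cardiac sarcomere and 1.70 for mitosis to -1.26 for chemokines and -1.15 for interferon response genes.

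Contractile genes of heart muscle were higher in the embryonic preparation almost without exception. Of 27 cardiac sarcomere genes 24 were higher and 0 lower (0 at an unadjusted p under 0.05), with a median of 2.98. Actc1, cardiac alpha-actin, read 13.40, 13.21 and 13.55 in embryonic and 8.34, 9.15 and 8.36 in adult arrays (4.77 ± 0.20, adjusted p = 9.93e-07, 27.4-fold), with 13.73 in cardiomyocytes. Myh7, the slow and fetal myosin heavy chain, read 10.92, 10.55 and 11.41 against 7.11, 6.81 and 7.11. Tnnc1, cardiac troponin C, was 18.4-fold and Smpx, a small muscle protein of the costamere, 21.1-fold higher. The list mean was 10.1 to 10.9 in embryonic fibroblasts, 7.81 to 7.98 in adult fibroblasts and 11.7 in cardiomyocytes. Embryonic replicate 2 was lowest and replicate 3 highest. This list and the cardiomyocyte markers hold genes in common, so the markers are no separate evidence here.

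Calcium handling genes and channels had 13 of 24 members higher and 1 lower. Nppa, the atrial natriuretic peptide, read 10.76, 9.64 and 10.56 in embryonic and 7.26, 7.58 and 7.64 in adult arrays, Pln, phospholamban, read 10.46 to 11.82 against 8.03 to 8.66, and Ryr2, the calcium release channel, was higher by 2.58. For all of these the cardiomyocyte mean was above every embryonic fibroblast array. The lower gene was Gja1, connexin 43 (-0.41). Of 23 cardiac transcription factors 11 were higher and 0 lower (0 at an unadjusted p under 0.05), with Hey2 (1.26), Myocd (1.10, but 0.69 without replicate 3 of both groups) and Smyd1 (1.03) among them. For Nkx2-5, an early heart muscle factor, the probe read 8.25 in embryonic and 8.23 in adult fibroblasts and 8.30 in the Nkx-YFP+ cardiomyocytes (means), so it did not separate even that group.

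Smooth muscle and myofibroblast genes had 15 of 31 members higher and 3 lower. Acta2, smooth muscle actin, which early heart muscle also expresses, read 11.25, 11.33 and 11.42 in embryonic and 9.11, 9.46 and 7.65 in adult arrays (2.59 ± 0.37, adjusted p = 0.00106, 6.03-fold), with 12.02 in cardiomyocytes. Cnn1, calponin, read 10.16, 9.82 and 10.23 against 8.02, 8.15 and 7.38, with 11.84 in cardiomyocytes. Adult replicate 3 was lowest for both. Cdh11, a cadherin of mesenchyme, read 11.28, 11.52 and 11.35 against 8.71, 8.80 and 9.46, and its cardiomyocyte mean of 9.87 was below the embryonic fibroblast arrays. Fap, a serine protease of activated fibroblasts, was 3.98-fold lower in the embryonic arrays. Myh11, the smooth muscle myosin heavy chain, was lower too (-1.02), a call lost without any single array except adult replicate 3. Smtn, Lmod1 and Mylk did not pass. The part of heart muscle transcripts in the differences of this list was not tested.

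The Actc1 window (RefSeq, GRCm38.p6, minus strand, chr2:114052876-114053125), again that of the list's largest difference, holds 1 CArG box, the serum response factor motif, in capitals 47 bases before the start.
Actc1: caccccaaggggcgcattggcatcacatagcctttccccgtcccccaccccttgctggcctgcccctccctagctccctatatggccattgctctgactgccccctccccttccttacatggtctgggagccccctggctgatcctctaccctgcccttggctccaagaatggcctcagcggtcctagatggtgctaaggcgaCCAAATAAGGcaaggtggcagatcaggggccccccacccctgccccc
A CArG box was present for 1.45% of all genes with an entry, for 6 of 23 sarcomere genes (26.1%), for 4 of 27 smooth muscle genes (14.8%) and for 2.56% of the genes at least 2-fold higher. CArG and CCAAT matches shared bases in 37 windows and CArG and NF-kB matches in 1.

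Energy metabolism differed by pathway. Of 40 oxidative phosphorylation genes 36 were higher in embryonic fibroblasts and 0 lower (0 at an unadjusted p under 0.05), with a median of 1.08. Cox7a1, the muscle form of a cytochrome oxidase subunit, read 10.05, 9.32 and 10.90 in embryonic and 7.51, 8.15 and 7.79 in adult arrays, and Ndufa9 of complex I read 11.36, 11.29 and 11.69 against 10.06, 9.88 and 8.66. The list mean was 10.7 to 11.2 in embryonic and 9.66 to 9.97 in adult fibroblasts and 11.8 in cardiomyocytes. The cardiomyocyte markers had the same order of groups, and their part in the difference was not tested.

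Of 31 fatty acid oxidation and lipid genes 15 were higher and 5 lower. Fabp3, the heart fatty acid binding protein, was 5.24-fold higher, and Ppargc1a, a coactivator of mitochondrial genes, was higher by 2.18. Among the lower members were Cd36, a fatty acid transporter (-2.01), the desaturase Scd1 (-1.82), the fatty acid binding protein Fabp4 (-1.66) and Pparg (-1.03), a nuclear receptor of fat cells. The desaturases thus parted, since Scd2 was higher (2.15). Of 23 glycolysis genes 11 were higher and 2 lower, and the lower count was 1 without embryonic replicate 1 or 2 or adult replicate 1 or 2, and with the replicate block. Ldhb, the heart-type lactate dehydrogenase, read 10.58, 10.37 and 11.08 against 7.62, 8.22 and 7.91, and Pgam2, the muscle phosphoglycerate mutase, was higher by 2.74. Hk2, the inducible hexokinase, read 8.48, 8.47 and 8.36 against 11.19, 10.87 and 9.96 and was 4.71-fold lower. The fatty acid list mean was 8.97 to 9.30 in embryonic fibroblast arrays and 9.795 in cardiomyocytes. For glycolysis these means were 9.42 to 9.60 and 10.21. The part of heart muscle transcripts in the differences of both lists was not tested.

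Protective enzymes were mostly lower in embryonic fibroblasts. Of 34 antioxidant and xenobiotic defence genes 18 were lower (21 without adult replicate 3) and 2 higher, with a median of -0.59. Mt2, a metallothionein, read 9.32, 8.74 and 9.57 in embryonic and 11.18, 11.07 and 12.26 in adult arrays. Slc7a11, the cystine importer that feeds glutathione, read 9.02, 9.16 and 8.38 against 11.06, 11.01 and 9.99, with 5.70 in cardiomyocytes. Ephx1 (-1.91) and Gstm1 (-1.89), enzymes of detoxification, were lower, while Gsta4, a transferase for lipid aldehydes, was 7.19-fold higher. Of 20 cytosolic ribosomal proteins 3 were higher, 5 without adult replicate 3, and 0 lower (0 at an unadjusted p under 0.05). Of 29 immediate early and heat shock genes 9 were lower, 14 without adult replicate 3, and 2 higher, 1 without any single embryonic replicate. Their lower count ran from 7 to 14 with each fibroblast array left out in turn. The AP-1 member Fosl1 read 9.37, 9.27 and 8.88 against 11.04, 10.92 and 10.17, Nr4a3 (-1.37), Hspa1a (-1.23) and Dusp1 (-0.75) were lower, and Dusp6, the phosphatase induced by ERK, was higher (1.17).

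MicroRNA loci were few among the calls. The miRNAs named here were chosen after their values were seen. Of 300 miRNA genes 3 were higher and 11 lower (4.67% called, median -0.08), and 5 of the lower ones differed by at least 2-fold. All 14 called genes matched a RefSeq sequence (GRCm38.p6). The mature sequences of 5 loci are shown because 4 of them form pairs that share a seed, bases 2 to 8, in capitals.
mmu-miR-221-3p: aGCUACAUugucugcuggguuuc
mmu-miR-222-3p: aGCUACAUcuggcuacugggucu
mmu-miR-29a-3p: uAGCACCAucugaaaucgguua
mmu-miR-29b-3p: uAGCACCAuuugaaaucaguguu
mmu-miR-155-5p: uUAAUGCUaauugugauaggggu
The hairpins of miR-221 and miR-222 lie on the minus strand at chrX:19146294-19146388 and chrX:19146893-19146971, those of miR-29a and miR-29b-1 on the minus strand at chr6:31062660-31062747 and chr6:31063023-31063093, and that of miR-155 on the plus strand at chr16:84714140-84714204. Both pairs shown are thus neighbours in the genome. A further called pair with a shared seed, Mir16-1 (-0.98) and Mir16-2 (-0.44), both lower, lies on chromosomes 14 and 3.

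Mir221 read 6.82, 7.14 and 7.08 in embryonic and 8.69, 8.83 and 8.96 in adult arrays (-1.82, adjusted p = 5.99e-05). Mir222, with the same seed, read 7.47, 7.01 and 7.26 against 8.96, 8.55 and 8.21 (-1.32). Neither pair of groups overlapped. Mir29a read 4.90, 4.54 and 5.16 against 6.31, 7.02 and 6.39 (-1.71), and Mir29b-1 (-0.92) was lower by a smaller margin, with adult replicate 3 at 3.78 near the embryonic 3.46, 3.49 and 3.52. Both loci read below the median of every fibroblast array (7.605 to 7.651), and Mir29b-1 was near the lowest value of any probe, 2.703. Such dim signal limits what can be said of them. The miR-29 seed is known to target collagen messages. Mir155, known from activated immune cells, read 8.21, 7.85 and 8.07 against 8.94, 8.94 and 9.38 (-1.04). The array probes read the precursor locus in total RNA, so these values are not levels of the mature miRNAs.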

How the data were processed

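The deposited table holds log2 values per transcript cluster, made with RMA (version not given in the sources used here) per the submitters' processing notes; RMA background-corrects, normalizes between arrays and summarises probes. The log2 scale was read from the values (2.703 to 14.197). Genome build and annotation are not given. Of 28767 probes, 21776 have a single gene symbol, 1618 several and 5373 none; the single-symbol probe with the highest mean over all 9 arrays stood for each of 19933 genes. limma 3.58.1 (R 4.3.3) was fitted to all 9 arrays, with 3 group means and eBayes, and tested on simulated data. Array number, 3 per group, limits the precision. Lists (36 of genes, 12 of markers, 1180 of 1268 entries matched), promoter motifs and members were chosen with earlier results of these data known. Named genes are the 12 largest called, non-overlapping differences per direction, up to 4 called members per list and direction, and 12 preset genes; one preset gene, H19, has no value here. Promoter windows span 250 bases; the NF-kB motif, ISRE, CArG box, CCAAT box, E2F and cell cycle homology motifs were searched on both strands. Alternatives covered the arrays fitted, array weights, scaling, dim genes, probe choice and each array left out.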

Additional observations from a re-analysis of the deposited data

How the results depend on the processing

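The 4 counts of called genes (higher, lower, and each by at least 2-fold) stayed within 1.5 times the reported ones under the alternatives run, except that array weights called 2519 lower genes in place of 1662. Fitted without the cardiomyocyte arrays, limma called fewer genes, 1778 higher and 1216 lower, and 695 and 447 at 2-fold or more. The median SD of a gene was 0.139 among adult and 0.100 among embryonic fibroblast arrays. Leaving out each fibroblast array in turn gave 1779 to 2476 higher and 1188 to 2251 lower genes, and 644 to 770 and 445 to 625 at 2-fold or more. With the replicate block the counts were 2189, 1631, 731 and 509. Deviations of same-numbered arrays correlated at 0.198, -0.024 and 0.166, and those of differently numbered arrays at -0.22 to 0.098. With 3 arrays per group these values do not settle whether equal numbers are pairs. The sample titles name no pairs, and the main fit used none. Centring each array gave 2093 higher and 1770 lower, and quantile normalization 2166 and 2026. Of 228 named genes, 198 had the same call in all 15 settings and 27 of 225 called ones lost it in at least 1. Itgb1 turned sign under quantile normalization (-0.083); the cause was not tested. Of 96 list counts, 67 stayed within 1.5 times in all alternatives. The 5265 genes below the 30th percentile of level have signal near background, which limits what can be said of them.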

Other observations

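Genes of the circadian clock, a list chosen after its values were seen, were partly lower in embryonic fibroblasts, with 8 of 17 measured lower and 0 higher in limma and a median of -0.36. Nr1d1, the repressor REV-ERB alpha, read 9.16, 8.68 and 9.05 in embryonic and 11.74, 11.46 and 11.33 in adult arrays (-2.55, adjusted p = 3.57e-06). Arntl, which encodes the activator BMAL1, read 8.87, 8.85 and 8.33 against 10.85, 10.78 and 10.29 (-1.95). Both are thus lower, although REV-ERB alpha represses Arntl. Nr1d2 (-1.05), Bhlhe40 (-1.01) and Rora (-0.99) were lower too, and Per1, Per2, Per3, Cry1 and Dbp did not pass.

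Some gene families or parts of families, also chosen after their values were seen, were called mostly in one direction. Over all genes 11.2% were higher and 8.34% lower. Of 5 Bex genes measured, 4 were higher and Bex6 did not pass. The cardiomyocyte means of Bex1, Bex3 and Bex4 were above their embryonic fibroblast arrays, and that of Bex2 lay among them. Of the 7 transporters Abca5, Abca6, Abca8a, Abca8b, Abca9, Abcb1a and Abcb1b, 6 were lower and 0 higher in limma. The other Abca and Abcb genes were not counted. Of 5 PYHIN genes 3 were lower, among them Ifi207 (-3.37), while Ifi202b read 11.06 in adult replicate 3 and at most 6.60 in the other adult arrays.

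Outside the named genes, 6991 probes carry no symbol or several. Of these, 598 were called in a fit of their own, 363 higher and 235 lower, and 226 by at least 2-fold. Among the tested genes 3894 of 19933 (19.5%) were called, a larger share. They were not analysed further here.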
